A study of Homo sapiens with 6 samples.

Results

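Kinesins are motor proteins that use ATP to move along microtubules or to take microtubules apart at their ends. Their genes were followed here in BE(2)-C, a clonal subline of a human neuroblastoma cell line, after treatment with NCT-503. NCT-503 inhibits PHGDH, the enzyme that starts the synthesis of serine from glucose. The members were taken by symbol, as KIF followed by a digit, without pseudogenes or antisense genes. This gave 39 genes out of 14779 genes measured. From their known roles, 13 were set down as mitotic kinesins, 15 as transport kinesins and 11 as other kinesins. KIF2A, which acts both at spindle poles and in axons, was placed among the others, and its relative KIF2B among the mitotic. The shares of mitotic kinesins given below depend on such choices.

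In dividing cells, mitotic kinesins push the spindle poles apart, bring chromosomes to the middle of the spindle and build the central spindle at which the cell divides in cytokinesis. In neurons, transport kinesins carry vesicles, mitochondria and receptors along the axon and into dendrites. Neuroblastoma arises from precursors of the sympathetic nervous system, so its cells divide and also use neuronal cargo transport. The genes of mitotic kinesins are known to be switched on late in the cell cycle.

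RNA was measured on 6 Affymetrix whole-transcript arrays, 1 sample each. Samples a, b and c of the control group had received DMSO, the solvent, and samples a, b and c of the treated group 10 µM NCT-503, all for 2 days. The labels give no genetic change and no other agent for either group. The study's design text calls the samples of each group independent, but the labels do not say whether they were separate cultures. The p-values therefore measure only the spread between these samples, which may be technical. All values are log2 expression values as deposited, and a change is NCT-503 minus DMSO on that scale. A gene was called higher or lower at a limma p under 0.05 after Benjamini-Hochberg adjustment over all genes.

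Array medians ran from 4.3 to 4.33, and the median change over all genes was 0.06. Of all genes, 16.4% were called higher and 17.1% lower, 33.5% in either direction, which is the background for every count of kinesins. Centring on the 75th percentile of every array turned the split over all genes from 2419 higher and 2534 lower to 3345 higher and 2189 lower. Of 12 measured markers of sympathetic neuroblastoma cells, 3 were called higher (PHOX2A, GATA3 and DBH, by 0.37 to 0.75) and 4 lower. The lower markers were TFAP2B (-1.44), CHGA (-1.23), HAND2 (-0.3) and ISL1 (-0.29). Over the 12, DMSO means ran from 5.26 for LMO1 to 10.04 for DBH, with TH, the enzyme that starts catecholamine synthesis, at 6.05. MYCN was not analysed here. Of 19 measured markers of mesenchymal, glial, leukocyte, endothelial and epithelial cells, 3 were called higher (PRRX1, MBP and CD68) and 2 lower (THY1 and DCN). CD68, which also marks lysosomes, had the largest of these changes, 2.25 ± 0.1 (SE). The DMSO means of PRRX1 (3.29) and MBP (3.84) lay below every array median. The calls of DBH, HAND2 and ISL1 were each lost on leaving out some arrays, and that of THY1 on leaving out any array. The part of these markers in the kinesin results was not tested.

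Of the 39 kinesins, 15 fell after NCT-503, 2 rose and 22 did not pass the test. That is 38.5% lower against 17.1% of all genes, and 5.13% higher against 16.4%. The 15 lower genes were 10 of the 13 mitotic kinesins (76.9%), 3 transport kinesins and 2 others, and the risers were KIF21A, a neuronal kinesin, and KIF26A, a kinesin without motor activity. In 15 of the 39, all 3 NCT-503 samples lay below all 3 DMSO samples, which held for 22.4% of all genes. In 5 of the 39 they lay above all 3, which held for 25.4%. The median change was -0.08 over all kinesins, -0.6 over the mitotic, -0.04 over the transport and 0.02 over the other kinesins. The transport median lay at 0.00 to 0.03 under the other scalings, and the mitotic median stayed below 0.

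**Figure D1:**
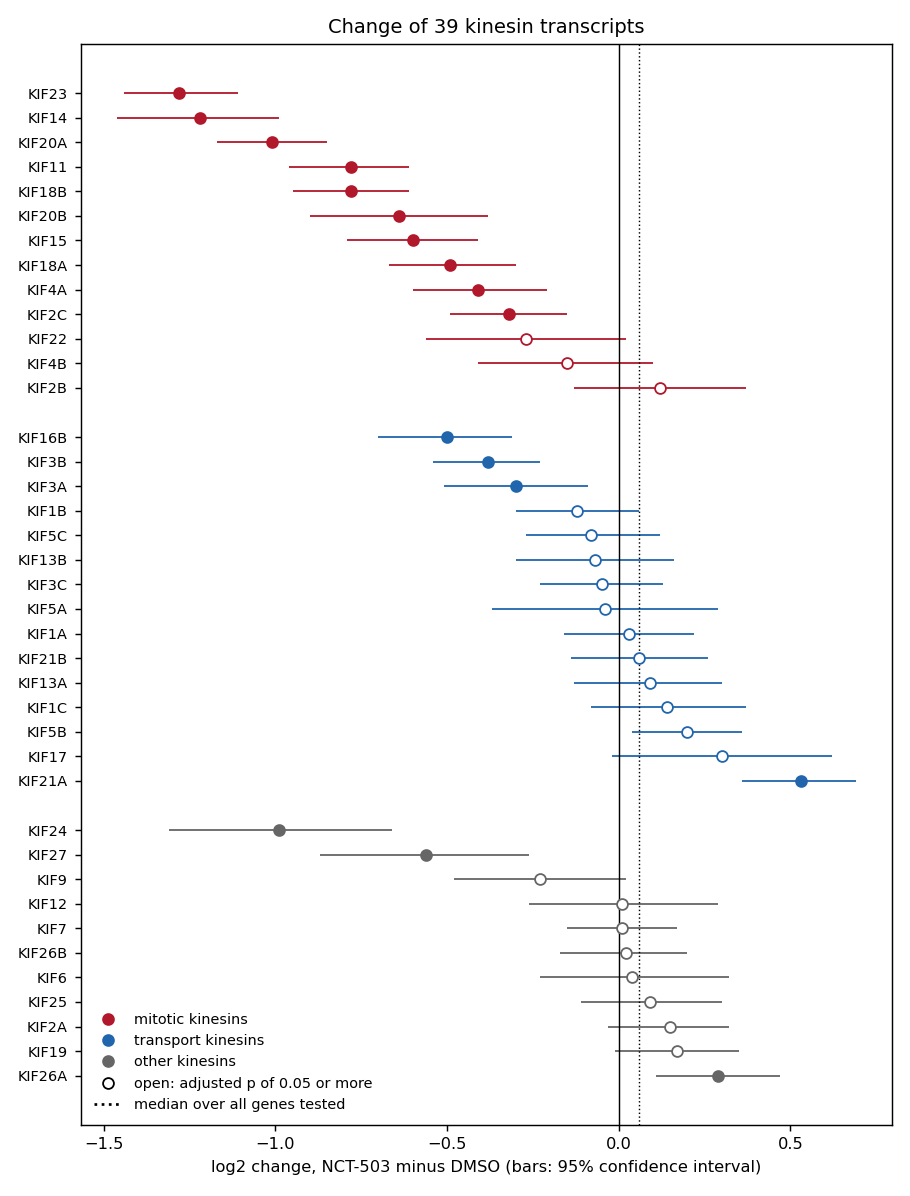
Log2 change (NCT-503 minus DMSO, n = 3 arrays per group) of each of the 39 kinesins with its 95% confidence interval, grouped as mitotic, transport and other, with called genes marked. The mitotic kinesins run from -1.28 to 0.12 and the transport kinesins from -0.5 to 0.53.

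Many genes switched on late in the cell cycle are known to share short motifs just before their start, so these stretches were read in the kinesins. Whether a motif goes with the change after NCT-503 was not tested. These are the CHR (cell cycle genes homology region), searched as TTTGAA or TTCGAA, and the CCAAT box, known to be bound by NF-Y. Both were searched on both strands from 250 bases before to 50 bases after the annotated starts in RefSeq (GRCh38.p14). A match describes letters in this window and was not tested as a binding site. The 100 bases before the start follow for 8 genes, 5′ to 3′ on the gene's strand, with matches in capitals (ATTGG is CCAAT and TTCAAA is TTTGAA on the opposite strand). KIF23, KIF11, KIF4A and KIF18A are mitotic kinesins that fell and hold both motifs, and KIF22 holds both but did not pass the test. KIF20A fell without a CHR match. KIF3B fell and KIF21A rose, both transport kinesins without a CHR match.
The stretches lie for KIF23 at chr15:69414249-69414348 (plus strand), KIF11 at chr10:92593030-92593129 (plus strand), KIF4A at chrX:70290004-70290103 (plus strand) and KIF18A at chr11:28108157-28108256 (minus strand). They lie for KIF22 at chr16:29790651-29790750 (plus strand), KIF20A at chr5:138179012-138179111 (plus strand), KIF3B at chr20:32277551-32277650 (plus strand) and KIF21A at chr12:39443121-39443220 (minus strand).
KIF23: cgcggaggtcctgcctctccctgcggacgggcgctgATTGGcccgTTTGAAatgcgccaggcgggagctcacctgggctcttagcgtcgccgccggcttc
KIF11: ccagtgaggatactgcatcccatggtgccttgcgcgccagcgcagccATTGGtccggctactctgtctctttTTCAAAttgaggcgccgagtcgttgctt
KIF4A: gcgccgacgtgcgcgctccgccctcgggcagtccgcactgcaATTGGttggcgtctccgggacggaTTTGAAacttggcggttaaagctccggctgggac
KIF18A: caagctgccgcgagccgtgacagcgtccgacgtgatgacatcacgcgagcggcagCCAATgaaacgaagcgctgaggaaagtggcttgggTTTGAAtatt
KIF22: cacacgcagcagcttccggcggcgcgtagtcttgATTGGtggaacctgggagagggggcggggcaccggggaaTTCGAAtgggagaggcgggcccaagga
KIF20A: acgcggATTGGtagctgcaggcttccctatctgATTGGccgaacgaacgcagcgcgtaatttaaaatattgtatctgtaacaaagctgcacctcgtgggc
KIF3B: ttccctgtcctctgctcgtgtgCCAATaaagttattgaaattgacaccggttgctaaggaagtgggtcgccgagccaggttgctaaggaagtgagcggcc
KIF21A: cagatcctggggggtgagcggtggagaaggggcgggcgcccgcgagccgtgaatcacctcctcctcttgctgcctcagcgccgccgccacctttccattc

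A CHR match was present in 10 of 13 mitotic kinesins (76.9%), in 1 of 12 transport kinesins with a window (8.33%) and in 1 of 8 others (12.5%), against 16.4% of all 35116 windows of the same length and 19.5% of all genes with one. The mitotic kinesins without a match were KIF20A, KIF2C and KIF2B. The single transport kinesin with a match was KIF5B, the ubiquitous kinesin-1 heavy chain, and the single match among the others was in KIF24, a centriolar kinesin that fell. CCAAT was present in 10 of 13 mitotic, 4 of 12 transport and 3 of 8 other kinesins, and in 39.7% of all genes with a window (34.6% of windows). Both motifs stood in 1 window for 9 of 13 mitotic kinesins (69.2%), against 7.85% of all genes with a window (6.38% of windows). No CHR match in a kinesin window shared bases with a CCAAT match.

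The positions of the matches varied among the mitotic kinesins. The first base of the CHR match lay 55 bases before the start in KIF23, 28 in KIF11, 34 in KIF4A, 10 in KIF18A, 27 in KIF22 and 35 in KIF15. In KIF14, KIF18B, KIF4B and KIF20B it lay after the start, at bases 2, 3, 4 and, in KIF20B, 25 and 31. A CCAAT match lay upstream, at 64 bases in KIF23, 53 in KIF11, 58 in KIF4A, 45 in KIF18A and 66 in KIF22. In KIF20B the CCAAT matches lay farther off, at 131 and 98 bases, and KIF15 had none. In KIF5B the order was the other way, with the CHR match 140 bases and the CCAAT match 59 bases before the start. The windows differed in base composition, with a median GC content of 62.0% in the mitotic, 71.3% in the transport and 58.7% in all windows, and its part in these shares was not tested.

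**Figure D2:**
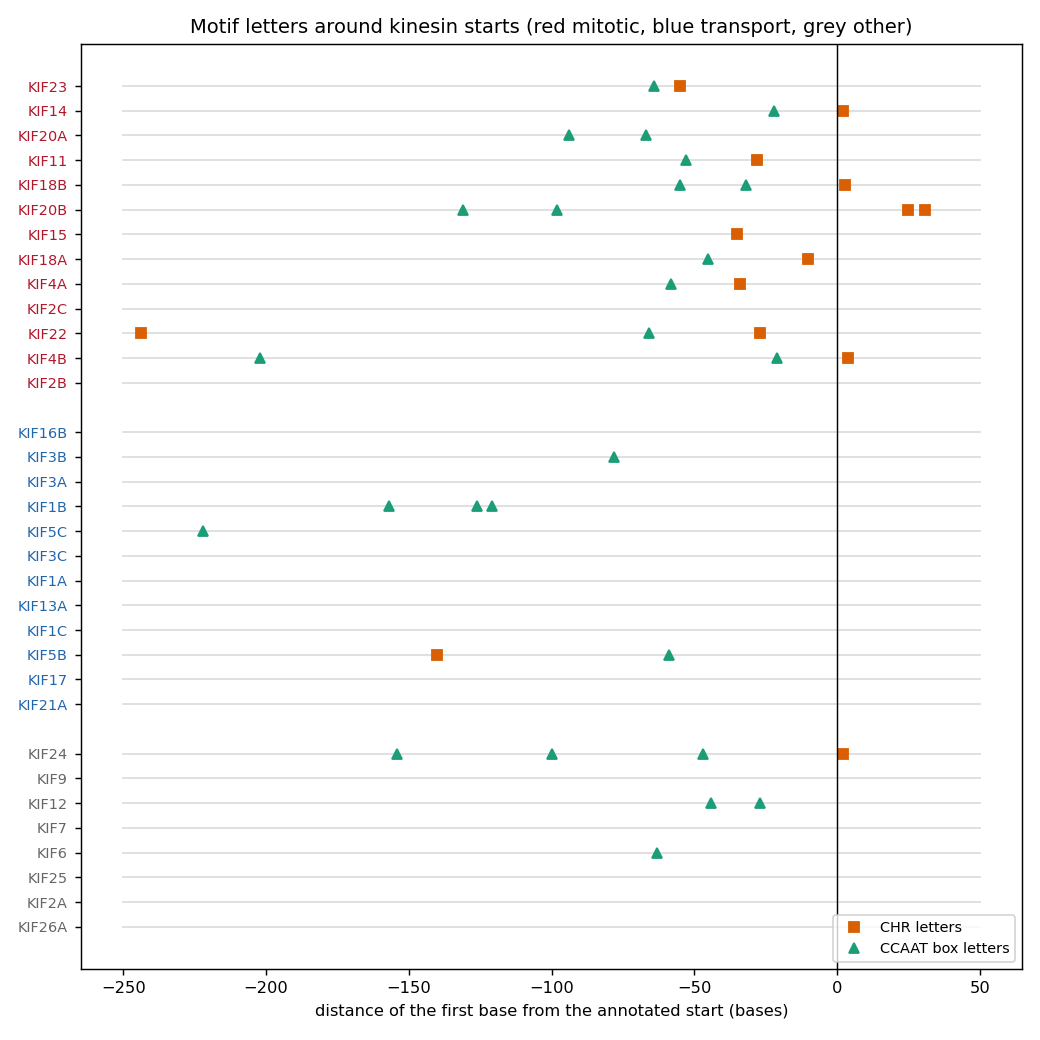
Position of CHR and CCAAT matches relative to the annotated start (bases, negative before the start) in the RefSeq windows of the 33 kinesins with one, 1 line per gene, so that the matches of KIF22 come from the windows of several starts. Matches of both kinds lie within the last 100 bases before the start in KIF23, KIF11, KIF4A, KIF18A and KIF22.

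Among the mitotic kinesins, those of the central spindle and cytokinesis had the lowest median change. Of 6 such genes 5 fell (83.3%, against 17.1% of all genes), with a median change of -0.82. KIF23 (MKLP1), the motor of the centralspindlin complex, read 9.21, 9.21 and 9.14 in DMSO a, b and c and 7.90, 7.90 and 7.94 in NCT-503 a, b and c. Every treated sample lay more than a log2 unit below every control. KIF23 fell by 1.28 ± 0.07 (SE, n = 3 per group, adjusted p = 4.62e-05), to 41.3% of the DMSO level, the lowest change of all 39 kinesins. In this bulk RNA, fewer cells in mitosis and less kinesin RNA per cell cannot be told apart.

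KIF14, which is known to hold citron kinase and PRC1 at the midbody, read 8.01, 7.88 and 8.08 with DMSO and 6.70, 6.68 and 6.93 with NCT-503. The groups did not overlap, and KIF14 fell by 1.22 ± 0.1 (adjusted p = 0.000181), to 42.9%. KIF20A (MKLP2), which carries the chromosomal passenger complex to the central spindle, read 9.06, 9.13 and 9.08 against 8.10, 8.08 and 8.06. All 3 treated samples lay close together, and KIF20A fell by 1.01 ± 0.07 (adjusted p = 9.83e-05), to 49.7%. KIF20B, a relative of KIF20A that also acts in cytokinesis, read 8.64, 8.41 and 8.50 against 7.75, 7.82 and 8.06. Sample c was the highest of the treated samples but below every control, and KIF20B fell by 0.64 ± 0.11 (adjusted p = 0.00392), to 64.1%.

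KIF4A, a chromosome-bound motor that sets the length of the central spindle with PRC1, moved less. It read 7.84, 7.95 and 7.85 with DMSO and 7.38, 7.47 and 7.57 with NCT-503, without overlap. It fell by 0.41 ± 0.08 (adjusted p = 0.00818), to 75.5%. KIF4B, an intronless copy nearly identical to KIF4A that probes may not tell from it, did not pass the test (-0.15 ± 0.11, adjusted p = 0.316).

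**Figure D3:**
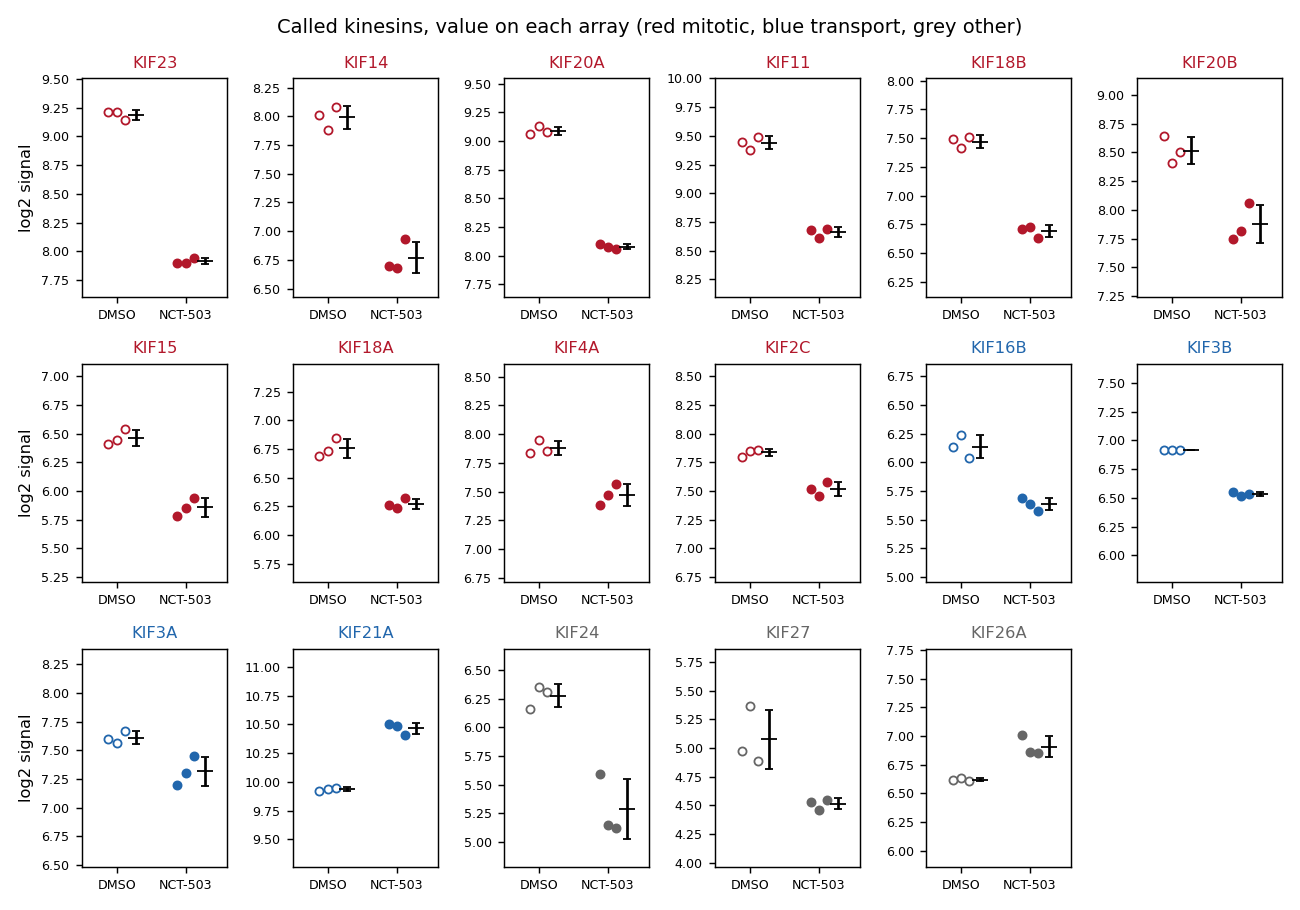
Log2 expression of the 17 called kinesins in each of the 6 arrays, DMSO (open) and NCT-503 (filled), with group means ± SD (n = 3), each panel on its own range. In KIF23 the DMSO samples sit between 9.14 and 9.21 and the NCT-503 samples between 7.9 and 7.94.

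Both kinesins that build the bipolar spindle fell, against 17.1% of all genes. KIF11 (Eg5), which slides antiparallel microtubules to separate the poles, read 9.45, 9.38 and 9.49 with DMSO and 8.68, 8.61 and 8.69 with NCT-503. The groups lay well apart, and KIF11 fell by 0.78 ± 0.07 (adjusted p = 0.000308), to 58.1%. KIF15, which can take over from KIF11 in keeping the poles apart, read 6.41, 6.44 and 6.54 against 5.78, 5.85 and 5.94. KIF15 fell by 0.60 ± 0.08 (adjusted p = 0.00142), to 65.9%, again without overlap.

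Of 5 kinesins that act in chromosome alignment and at microtubule ends, 3 fell (60.0%, against 17.1% of all genes). The median change over the 5 was -0.32. KIF18B, which limits the growth of astral microtubules, read 7.49, 7.41 and 7.51 with DMSO and 6.71, 6.73 and 6.63 with NCT-503. No treated sample reached a control, and KIF18B fell by 0.78 ± 0.07 (adjusted p = 0.000325), to 58.3%. Its close relative KIF18A, which damps chromosome movements at the spindle's middle, read 6.69, 6.73 and 6.85 against 6.26, 6.24 and 6.32. KIF18A fell by 0.49 ± 0.08 (adjusted p = 0.00299), to 71.4%.

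KIF2C (MCAK), which takes microtubules apart at the kinetochore to correct wrong attachments, had the smallest fall of the mitotic kinesins called. It read 7.80, 7.85 and 7.86 with DMSO and 7.52, 7.46 and 7.58 with NCT-503. The groups did not overlap, and KIF2C fell by 0.32 ± 0.07 (adjusted p = 0.0136), to 80.1%. KIF22 (Kid), which pushes chromosome arms away from the poles, read 8.22, 8.41 and 8.18 against 8.20, 8.02 and 7.78. Sample a of the treated group lay inside the control range, and the change of -0.27 ± 0.12 did not pass (adjusted p = 0.134). KIF2B, a relative of KIF2C, did not pass either (0.12 ± 0.11, adjusted p = 0.437), at a DMSO mean of 4.44, near the array medians.

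Of the transport kinesins, 3 of 15 were called lower (20.0%) and 1 higher (6.67%), near or below the background of all genes (17.1% and 16.4%). In 10 of 15 the groups overlapped, which held for 7706 of all 14779 genes. None of the 3 kinesin-1 heavy chains, the main motors of fast axonal transport, passed the test. KIF5B, the ubiquitous one, read 10.23, 10.26 and 10.24 with DMSO and 10.43, 10.41 and 10.49 with NCT-503. The treated samples all lay above the controls, but the change of 0.2 ± 0.07 (95% interval 0.04 to 0.36) missed the threshold at an adjusted p of 0.0648. That call depends on the scaling, since the adjusted p was 0.0336 with median centring, 0.0282 with centring on the 75th percentile and 0.397 with quantile normalization. The neuronal KIF5C read 7.35, 7.36 and 7.17 against 7.24, 7.23 and 7.17, with overlap and a change of -0.08 (95% interval -0.27 to 0.12, adjusted p = 0.503). For the neuronal KIF5A the change was -0.04 (95% interval -0.37 to 0.29, adjusted p = 0.848).

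Of the 4 kinesin-2 genes, 2 were called lower. KIF3A and KIF3B form the motor of heterotrimeric kinesin-2, which carries cargo in axons and along the cilium. KIF3B read 6.92 in each DMSO sample and 6.55, 6.52 and 6.53 with NCT-503. All treated samples lay lower by a nearly equal amount, and KIF3B fell by 0.38 ± 0.07 (adjusted p = 0.00442), to 76.6%. KIF3A read 7.60, 7.56 and 7.67 against 7.20, 7.30 and 7.45, and fell by 0.30 ± 0.09 (adjusted p = 0.0375), to 81.4%. The groups did not overlap, but the call of KIF3A was lost on leaving out any array other than NCT-503 c (adjusted p 0.0666 to 0.114). It was also lost under the 3 other scalings (adjusted p 0.0661 to 0.11), and held in 6 of 17 alternatives. The accessory subunit KIFAP3, which links KIF3A and KIF3B to cargo, moved the other way. It read 7.36, 7.50 and 7.39 with DMSO and 8.22, 8.10 and 8.17 with NCT-503, and rose 1.67-fold (0.74 ± 0.08, adjusted p = 0.000516). KIF3C (-0.05 ± 0.08, adjusted p = 0.673), a neuronal partner of KIF3A, and KIF17 (0.3 ± 0.14, adjusted p = 0.137), a dendritic motor, did not pass.

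Of the 6 transport kinesins of the kinesin-3 subfamily, 1 fell (16.7%, against 17.1% of all genes). KIF16B, which moves early endosomes, read 6.13, 6.24 and 6.04 with DMSO and 5.69, 5.64 and 5.58 with NCT-503. The groups did not overlap, and KIF16B fell by 0.50 ± 0.08 (adjusted p = 0.00328), to 70.6%. KIF1A, the neuronal motor of synaptic vesicle precursors, read 7.19, 7.09 and 7.09 against 7.26, 7.11 and 7.09, which overlap almost fully. Its change was 0.03 (95% interval -0.16 to 0.22, adjusted p = 0.822). KIF1B, which carries mitochondria and synaptic vesicle precursors, read 7.50, 7.62 and 7.60 against 7.52, 7.43 and 7.40, a change of -0.12 (95% interval -0.3 to 0.06, adjusted p = 0.253). Treated sample a lay at the low edge of the controls and samples b and c just below them. The other kinesin-3 members that did not pass were KIF13B (-0.07), KIF13A (0.09) and KIF1C (0.14).

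KIF21A, a kinesin-4 that restrains microtubule growth in axons, was the transport kinesin that rose. It read 9.92, 9.94 and 9.95 with DMSO and 10.50, 10.49 and 10.41 with NCT-503. Every treated sample lay above every control, and KIF21A rose 1.44-fold (0.53 ± 0.07, adjusted p = 0.00132). Its neuronal relative KIF21B did not pass (0.06 ± 0.08, adjusted p = 0.604). The DMSO means of KIF21B (3.57) and KIF13A (3.73) lay below the lowest array median of 4.3, and that of KIF17 (4.35) lay near it. The 95% intervals of the 11 transport kinesins that did not pass together spanned -0.37 (from KIF5A) to 0.62 (from KIF17). Each single interval was narrower, and changes within it are not excluded for that gene.

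Of the 11 other kinesins, 2 fell and 1 rose. That is 18.2% lower and 9.09% higher, against 17.1% and 16.4% of all genes. KIF24, a kinesin-13 at the mother centriole that holds back cilium growth, read 6.16, 6.35 and 6.31 with DMSO and 5.59, 5.15 and 5.12 with NCT-503. Treated sample a was the highest of its group and still below the controls, and KIF24 fell by 0.99 ± 0.14 (adjusted p = 0.00167), to 50.4%. KIF27, a relative of the Hedgehog regulator KIF7, read 4.97, 5.37 and 4.89 against 4.53, 4.46 and 4.55. DMSO b stood above the other controls, the groups did not overlap, and KIF27 fell by 0.56 ± 0.13 (adjusted p = 0.0144), to 67.6%. The call of KIF27 rests on 1 of its 3 rows, since the mean of the rows gave -0.23 (adjusted p = 0.262). The other rows read low on all arrays, from 0.951 to 2.981, below every array median.

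KIF26A, which lacks motor activity and is known to damp growth signalling in enteric neurons, was the other riser. It read 6.62, 6.63 and 6.61 with DMSO and 7.01, 6.86 and 6.85 with NCT-503. The groups did not overlap, and KIF26A rose 1.22-fold (0.29 ± 0.08, adjusted p = 0.0254). That call was lost on leaving out any array other than NCT-503 c (adjusted p 0.051 to 0.0746). KIF2A, which takes microtubules apart at spindle poles and in growing axons, read 9.15, 9.11 and 9.25 against 9.32, 9.29 and 9.33. All treated samples lay above the controls, but the change of 0.15 ± 0.07 did not pass (adjusted p = 0.17). The other members that did not pass were KIF9, KIF7, KIF12, KIF26B, KIF6, KIF19 and KIF25, with changes from -0.23 to 0.17. The DMSO means of KIF9 (3.76), KIF6 (2.26) and KIF25 (2.93) lay below every array median.

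Relatives within a subfamily stood on different sides of the test, though the differences between them were not tested. In kinesin-13, KIF2C and KIF24 fell, while KIF2A had a change of 0.15 and KIF2B of 0.12. In kinesin-4, the chromosome-bound KIF4A and the non-mitotic KIF27 fell, the axonal KIF21A rose, and KIF4B, KIF7 and KIF21B did not pass. In kinesin-3, the cytokinesis motor KIF14 fell by 1.22 and the endosome motor KIF16B by 0.5. The vesicle motor KIF1A, also a kinesin-3, had a change of 0.03. In kinesin-8, KIF18A and KIF18B fell, while KIF19, which shortens microtubules in cilia, read higher in all 3 treated samples with a change of 0.17 that did not pass (adjusted p = 0.129).

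The mean log2 value over the 13 mitotic kinesins was 7.65, 7.63 and 7.68 in DMSO a, b and c and 7.05, 7.02 and 7.08 in NCT-503 a, b and c. Over the 15 transport kinesins it was 6.65, 6.68 and 6.63 with DMSO and 6.67, 6.67 and 6.59 with NCT-503. The mitotic means of the 2 groups lay far apart compared with the spread within each, and the transport means overlapped. Taken within each array, the mitotic mean minus the transport mean was 1.0, 0.95 and 1.05 with DMSO and 0.38, 0.36 and 0.49 with NCT-503, and the 2 ranges did not overlap. These means describe members chosen with earlier results known and were given no test.

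**Figure D4:**
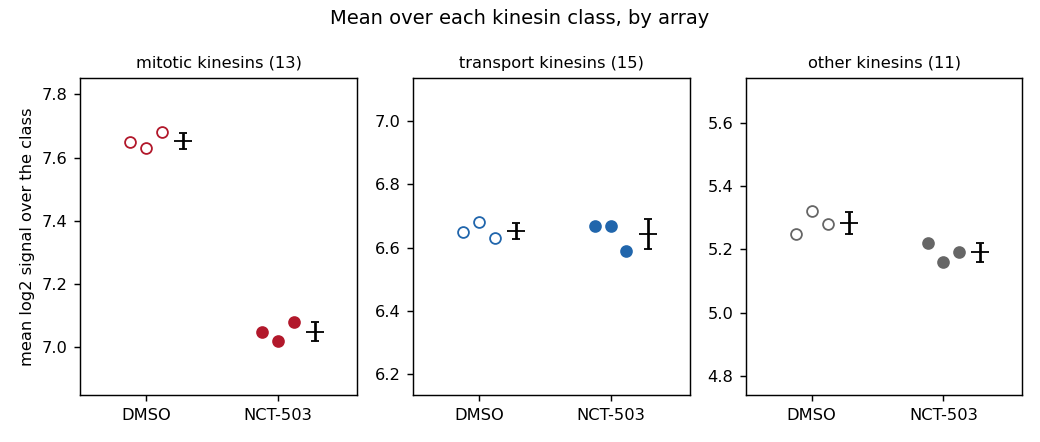
Mean log2 expression over the mitotic, transport and other kinesins in each array (points), DMSO beside NCT-503, with the group mean ± SD (n = 3) to the right of the points. The mitotic mean is 7.63 to 7.68 with DMSO and 7.02 to 7.08 with NCT-503, while the transport mean is 6.63 to 6.68 and 6.59 to 6.67.

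Markers of proliferating cells moved with the mitotic kinesins. Of 17 measured, 16 fell (94.1%, against 17.1% of all genes), with a median change of -0.68. All 17 had every treated sample below every control, which held for 22.4% of all genes. MKI67, the gene of the Ki-67 protein found in cycling cells, read 10.26, 10.24 and 10.32 with DMSO and 9.06, 9.12 and 9.15 with NCT-503, and fell by 1.17 ± 0.07 (adjusted p = 7.13e-05). Larger falls were those of CCNE2, a cyclin of S phase entry, by 2.49 ± 0.15 (adjusted p = 5.61e-05), PCNA, a clamp that holds the DNA polymerase, by 2.04 ± 0.09 (adjusted p = 1.66e-05), and MCM3, a subunit of the replicative helicase, by 1.21 ± 0.09 (adjusted p = 0.000147). The mean over the list was 8.68 to 8.72 with DMSO and 7.77 to 7.88 with NCT-503. The call of FOXM1 was lost on leaving out any array, and that of CCNA2 on leaving out any other than NCT-503 c. The list then had 14 to 15 lower, and at an adjusted p under 0.01 it had 11. The part of these markers in the result on mitotic kinesins was not tested.

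Of 21 measured spindle partners of the mitotic kinesins, 15 fell and none rose, with a median change of -0.49. The shares were 71.4% lower and 0.0% higher, against 17.1% and 16.4% of all genes. In 17 of the 21, all treated samples lay below all controls, which held for 22.4% of all genes. ESPL1, the separase that releases sister chromatids, fell by 1.09 ± 0.13 (adjusted p = 0.000971), CCNB1, the cyclin of mitotic entry, by 1.07 ± 0.08 (adjusted p = 0.000148) and NUSAP1, a spindle-binding protein, by 0.84 ± 0.07 (adjusted p = 0.000221). All 4 genes of the chromosomal passenger complex, the cargo of KIF20A, fell: AURKB by 0.71, INCENP by 0.61, BIRC5 by 0.69 and CDCA8 by 0.44 (adjusted p 0.00102 to 0.0042). PRC1, the microtubule bundler that recruits KIF4A, fell by 0.60 ± 0.08 (adjusted p = 0.00155). The calls of CDK1 and SPAG5 were each lost on leaving out some arrays, and the list then had 13 to 14 lower. CCNB1 is also counted among the proliferation markers.

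RACGAP1, the second component of centralspindlin beside KIF23, did not pass the test. It read 4.93, 5.05 and 5.07 with DMSO and 5.42, 5.25 and 4.70 with NCT-503, on both sides of the controls, with a change of 0.11 ± 0.18 (adjusted p = 0.675). ECT2, which centralspindlin recruits to start furrowing, fell by 0.53 ± 0.08 (adjusted p = 0.00189). The further partners that did not pass were CKAP5 (0.12), HMMR (-0.06), PLK1 (-0.19), CEP55 (-0.26) and BUB1 (-0.07). TPX2, CIT, ANLN and ASPM were not analysed here.

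Of the kinesins with other names, KIFC1 and STARD9 fell and KIFC2 and KIFC3 did not pass. KIFC1, the minus-end motor that bundles spindle poles, fell by 0.61 ± 0.08 (adjusted p = 0.000999), and a CHR match stood just after its start. STARD9, which keeps centrosomes intact in mitosis, fell by 0.52 ± 0.09 (adjusted p = 0.00365). The changes of KIFC2 and KIFC3, which serve transport and epithelial junctions, were -0.1 (adjusted p = 0.455) and 0.29 (adjusted p = 0.0942). CENPE was not analysed here.

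Of 19 measured genes listed as light chains, cargo adaptors and related factors of transport kinesins, 7 rose and 3 fell. Their median change was 0.18. The shares were 36.8% higher against 16.4% of all genes, and 15.8% lower against 17.1%. RHOT1 (Miro), which ties mitochondria to kinesin-1, read 8.14, 8.07 and 8.14 with DMSO and 9.07, 9.05 and 9.11 with NCT-503. Every treated sample lay far above the controls, and RHOT1 rose 1.95-fold (0.96 ± 0.07, adjusted p = 0.000125). SYBU (syntabulin), which links kinesin-1 to syntaxin vesicles and mitochondria, read 5.72, 5.83 and 5.67 against 4.36, 4.15 and 3.89. It lay lower in all treated samples and fell by 1.61 ± 0.13 (adjusted p = 0.000156), to 32.9%.

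KLC1, the light chain that joins kinesin-1 to many neuronal cargoes, read 8.14, 8.02 and 8.09 with DMSO and 7.57, 7.60 and 7.52 with NCT-503, and fell by 0.52 ± 0.07 (adjusted p = 0.00166). KIFBP, a protein that binds several kinesin motors and keeps them off microtubules, fell by 0.60 ± 0.09 (adjusted p = 0.00263). The listed genes that rose beside RHOT1 and KIFAP3 were FEZ2, DENND4C, MADD, HAP1 and KLC4, with changes of 0.37 to 0.48. DENND4C is not an established kinesin adaptor, but it is included in the counts. The calls of HAP1 and KLC4 were each lost on leaving out 4 of the 6 arrays (adjusted p up to 0.076 and 0.108). The list then had 5 to 7 higher, with 5 without DMSO a, NCT-503 a or NCT-503 b.

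**Figure D5:**
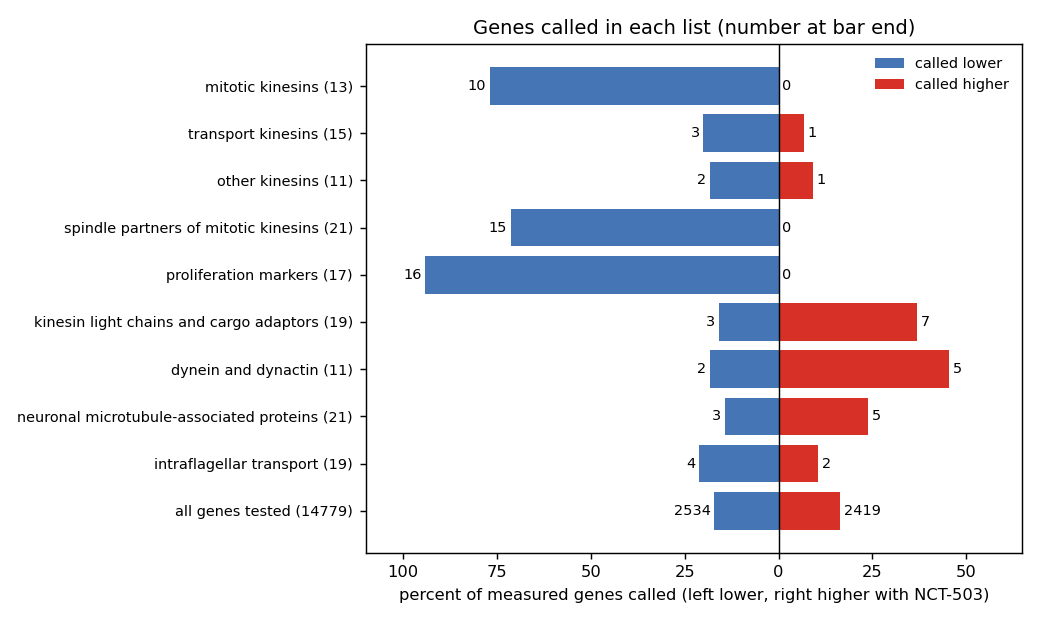
Share of measured genes called higher and called lower after NCT-503 (percent) in the kinesin classes, the related gene lists and all genes tested. The mitotic kinesins are at 76.9% lower and 0.0% higher, and all genes at 17.1% and 16.4%.

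Dynein is the motor that runs opposite to most kinesins, and no gene of its own subunits was analysed here. Of 25 listed genes of dynein, dynactin and regulators, 11 were measured, all of dynactin, regulators and cargo adaptors. Of these, 5 rose and 2 fell (median change 0.39). That is 45.5% higher against 16.4% of all genes, and 18.2% lower against 17.1%. BICD1, a cargo adaptor of dynein, fell by 0.76 ± 0.08 (adjusted p = 0.000385), and DCTN4, a dynactin subunit, rose by 0.61 ± 0.08 (adjusted p = 0.00101). Leaving out an array in turn left 3 to 6 higher, the fewest without DMSO a, and 1 to 2 lower.

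The list of neuronal microtubule-associated proteins also holds genes not confined to neurons, such as MAP4, MAP7 and STMN1. Of its 21 genes, 5 rose and 3 fell (23.8% and 14.3%), with a median change of 0.05. Over all genes these shares were 16.4% and 17.1%. TPPP, which stabilises microtubules, rose by 0.78 ± 0.13 (adjusted p = 0.00391), MAPT, the gene of tau, by 0.59 ± 0.12 (adjusted p = 0.00815), and MAP1A by 0.47 ± 0.1 (adjusted p = 0.00946). The calls of DCLK1, MAP4, MAP2, MAP7 and STMN1 were each lost on leaving out some array, and the lower calls then numbered 0 to 2. Centring on the 75th percentile gave 6 higher and 0 lower.

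Intraflagellar transport carries cargo along the cilium on the KIF3 motor. Of 19 measured genes 4 fell and 2 rose, with a median change of -0.11. TRAF3IP1 (IFT54) fell by 1.05 ± 0.11 (adjusted p = 0.000455) and IFT81 by 0.70 ± 0.15 (adjusted p = 0.0111), while IFT74, the binding partner of IFT81, rose by 0.59 ± 0.08 (adjusted p = 0.00134) and IFT52 by 0.56 (adjusted p = 0.0141). The shares called, 21.1% lower and 10.5% higher, lay close to those of all genes. Tubulins were not analysed here.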

How the data were processed

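The values are log2 expression values that the authors deposited after using Partek, as the submitters' processing notes state without a version. The background correction, summarisation, normalization and genome build behind them were not given in the sources used here. Of 31135 rows in all, 15098 carried 1 gene symbol. A gene with several rows kept the brightest by mean, giving 14779 genes, with no filter on low values. Groups were compared with lmFit and eBayes of limma 3.58.1, run in R 4.3.3 (no trend, two-sided, Benjamini-Hochberg over all genes), after the step had been tested on simulated data. The 3 arrays per group limit the precision, and the median SE of a change was 0.105. Alternatives were other scalings, filters, row rules, variance models, thresholds, a replicate block and leaving out each array. Members and lists were chosen with earlier results of these data known. Array values are given for called kinesins and for the 6 others with the highest mean. Related lists are described by up to 4 called members with the largest change. Further partners, adaptors and members whose calls were lost were named after their values were seen. Sequences and windows are RefSeq's (GRCh38.p14), matched by symbol; 33 of 39 kinesins had a window. No window was matched for KIF5A, KIF13B, KIF21B, KIF19, KIF26B and KIF27.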

Additional observations from a re-analysis of the deposited data

How the results depend on the processing

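Of the 17 called kinesins, 13 kept their call under every alternative, and no called kinesin changed direction. The 4 that lost it somewhere were KIF3A, KIF26A, KIF27 and KIF2C. Mitotic kinesins called lower numbered 10 under every alternative except a variance trend with robust fitting (11) and an adjusted p under 0.01 (9). Their median change was -0.51 instead of -0.6 after quantile normalization; the cause was not tested. The 2 kinesins called higher became 4 with the trend and 1 at an adjusted p under 0.01, and ranged from 1 to 2 on leaving out an array. Transport kinesins called higher were 2 instead of 1 with the trend, with median centring, with centring on the 75th percentile and with filters at the 25th or 50th percentile of expression, where KIF5B was added. Transport kinesins called lower were 2 instead of 3 with both centrings, quantile normalization, every row tested, the replicate block and an adjusted p under 0.01, where KIF3A was lost. At an adjusted p under 0.01 the calls over all genes were 1226 higher and 1682 lower. The median of the transport kinesins, -0.04, was 0.02 without NCT-503 c. Samples of the same letter shared no deviation from their group means (correlations 0 to 0.04). With 3 arrays per group this does not settle whether they were paired. With a replicate block, 14 kinesins were lower and 1 higher. Scanner signals were not used here, so signal over background is not known.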

Other observations

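KIF27 was the only kinesin measured by several rows. The 2 rows not used had changes of -0.169 (adjusted p = 0.629) and 0.029 (adjusted p = 0.923), neither called, in a limma fit over every row. KIF9-AS1, the antisense RNA of KIF9, was left out of the kinesins. It read 3.65, 3.04 and 3.98 with DMSO and 3.37, 4.02 and 2.97 with NCT-503, which overlap widely, and its change was -0.1 ± 0.31 (SE, adjusted p = 0.826).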
